A study of Mus musculus with 20 samples.

Results

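The genes described here encode the signalling part of the T-cell receptor, its CD8 co-receptor and the surface receptors and adaptors that set its strength. They are Cd3e, Cd3g, Cd3d, Cd247, Cd8a, Cd8b1, Cd5, Cd6, Themis and Trat1. Members were taken by gene symbol from the platform annotation, with every probe set listed for a symbol, and expression values played no part in that rule. The list of members itself was chosen with earlier results of these data known. This gave 10 of the 18193 genes and 21 of the 45101 probe sets on the array. Of the 21 probe sets, 18 were bright enough to be tested.

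The study profiled 10 mouse blood cell types on Affymetrix Mouse430_2 arrays, with 2 arrays for each type. The T cell groups are 4: CD8 T cells and CD4 T cells activated with lipopolysaccharide (LPS, a bacterial cell wall component) according to the source labels, and naive CD8 T cells and naive CD4 T cells. The 6 other groups are natural killer (NK) cells, B cells, long-term hematopoietic stem cells (LT-HSC), monocytes, granulocytes and nucleated erythrocytes. All groups share 1 genotype: wild-type C57Bl/6 females with the CD45.1 marker, 12 to 14 weeks old, with material of 4 samples pooled for an array. Cells were sorted by flow cytometry, 25000 to 50000 at a time, and the gates and the duration and dose of the LPS treatment are not stated in the labels. The RNA went through 2 rounds of linear amplification. Replicates are called biological in the series text, and the spread behind a p-value is that of pools and not of single mice. In bulk samples fewer cells of a type and less RNA per cell cannot be told apart.

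The T-cell receptor binds peptide presented by MHC molecules through its alpha and beta chains, which cannot signal themselves. The gamma, delta and epsilon chains of CD3 (Cd3g, Cd3d, Cd3e) and the zeta chain (Cd247) carry the immunoreceptor tyrosine-based activation motifs (ITAMs) that the kinase Lck phosphorylates and the kinase Zap70 binds. CD8, a dimer of Cd8a with itself or with Cd8b1, binds MHC class I and brings Lck to the receptor. Cd5 and Cd6 are related scavenger-receptor proteins of the T cell surface that tune the signal, Themis is a cytoplasmic protein needed for thymocyte selection, and Trat1 encodes the transmembrane adaptor TRIM, which associates with the receptor complex.

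Some arrays stood apart from their labels or their group. The Y-linked genes Eif2s3y and Kdm5d were at 10.73 and 7.71 or above in 6 arrays (all 4 activated T cell arrays and the naive CD8 and naive CD4 arrays numbered 1) and at 3.45 and 2.72 or below in the other 14, although every label says female. Xist, listed with them as a marker of sex, was not alike in those 6 arrays. Its brightest probe set read 9.88 in naive CD8 array 1, 8.99 in activated CD8 array 2 and 8.14 in activated CD4 array 2. It read 2.23 to 4.28 in the rest of the 6. The dimmer Xist probe sets read 3.13 to 3.8 and 3.12 to 6.09 in the 6 arrays. Leaving out the naive arrays numbered 2 therefore matched the T cell arrays in the Y-linked genes and not in Xist. The title of 1 naive CD8 array reads CD48+, and its source name reads CD8+. The Gapdh control probe set for the 5 prime end of the transcript read 7.42 to 8.81 in activated T cell arrays, against 3.89 to 4.45 in naive ones. The Gapdh set for the 3 prime end was also higher, at 14.66 to 15.08 against 13.07 to 13.58. The 5 prime set of beta-actin differed less, at 3.94 to 5.55 against 3.57 to 3.89. Calls that were lost with the naive arrays numbered 1 or 2 left out are given below. The Gapdh difference lies between all activated and all naive arrays, so its part in the activation differences cannot be told apart from activation. The 6 granulocyte markers together summed to 15.59 to 16.04 log2 units in activated T cell arrays. The same sum was 15.50 and 20.62 in naive CD8 T cells and 15.65 and 32.54 in naive CD4 T cells. Naive CD4 array 2 was thus the high one. In that array S100a8 read 10.75, S100a9 10.68 and Ngp 4.32, while Camp, Ltf and Mmp8 read 2.43 or less. Monocytes also held S100a8 and S100a9, at 16.15 to 16.56.

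The members lie in few places of the genome. Cd3g, Cd3d and Cd3e are neighbours on chromosome 9 with 0 annotated genes between them, Cd8b1 and Cd8a are neighbours on chromosome 6, and Cd5 and Cd6 lie on chromosome 19 with 1 gene between them. Cd247 is on chromosome 1, Themis on 10 and Trat1 on 16. The promoters of the 3 CD3 genes and of Cd247 are shown because these 4 chains of 1 complex part ways between cell types in the values that follow. Each is the 250 bases before the transcription start in RefSeq (mouse GRCm38.p6), at chr9:45009612-45009861 on the minus strand for Cd3e, chr9:44980432-44980681 on the minus strand for Cd3g, chr9:44981536-44981785 on the plus strand for Cd3d and chr1:165788431-165788680 on the plus strand for Cd247. Capitals mark letter matches, on either strand, to 5 short motifs named after the factor families known to bind them.
Cd3e: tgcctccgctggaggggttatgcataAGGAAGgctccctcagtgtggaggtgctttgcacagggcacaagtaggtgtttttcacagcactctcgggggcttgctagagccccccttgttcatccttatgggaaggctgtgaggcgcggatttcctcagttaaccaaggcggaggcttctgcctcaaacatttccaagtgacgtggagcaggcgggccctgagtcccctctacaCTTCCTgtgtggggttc
Cd3g: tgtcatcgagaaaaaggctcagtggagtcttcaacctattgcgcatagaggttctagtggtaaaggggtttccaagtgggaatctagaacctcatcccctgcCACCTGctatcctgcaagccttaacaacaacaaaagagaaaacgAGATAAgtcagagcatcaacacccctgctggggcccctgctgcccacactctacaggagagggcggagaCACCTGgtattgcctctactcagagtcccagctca
Cd3d: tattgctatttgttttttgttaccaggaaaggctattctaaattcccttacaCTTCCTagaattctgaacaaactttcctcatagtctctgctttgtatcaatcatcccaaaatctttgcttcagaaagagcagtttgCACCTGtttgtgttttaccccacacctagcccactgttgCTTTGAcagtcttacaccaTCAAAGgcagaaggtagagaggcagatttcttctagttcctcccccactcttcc
Cd247: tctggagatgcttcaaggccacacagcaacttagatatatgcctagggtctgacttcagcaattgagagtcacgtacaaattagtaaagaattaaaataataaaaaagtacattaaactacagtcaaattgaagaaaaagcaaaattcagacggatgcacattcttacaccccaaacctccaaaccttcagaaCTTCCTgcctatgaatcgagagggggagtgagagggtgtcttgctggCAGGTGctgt

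The shares that follow are over all 32851 mouse promoters of this length, and each motif was also searched as its reverse complement. The ETS core was searched as AGGAAG, which 29.5% of promoters hold, and it occurs 2 times in Cd3e and 1 time each in Cd3d and Cd247. The E-box was searched as CAGGTG, present in 17.2%, with 2 matches in Cd3g and 1 each in Cd3d and Cd247. The core of the TCF/LEF factors, searched as CTTTGA and present in 13.8%, has 2 matches in Cd3d. The core of the GATA factors, searched as AGATAA and present in 10.0%, has 1 match in Cd3g. For the RUNX core, searched as TGTGGT and present in 14.0%, none of the 4 windows holds the letters. Such matches are a description of the letters and not of binding. By base composition the promoters were unlike each other, with 57.2% G and C in Cd3e, 51.6% in Cd3g and 41.2% in both Cd3d and Cd247, beside a median of 52.4% over all promoters. The CpG count was 7 in Cd3e, 4 in Cd3g, 0 in Cd3d and 3 in Cd247, beside a median of 6.

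**Figure D1:**
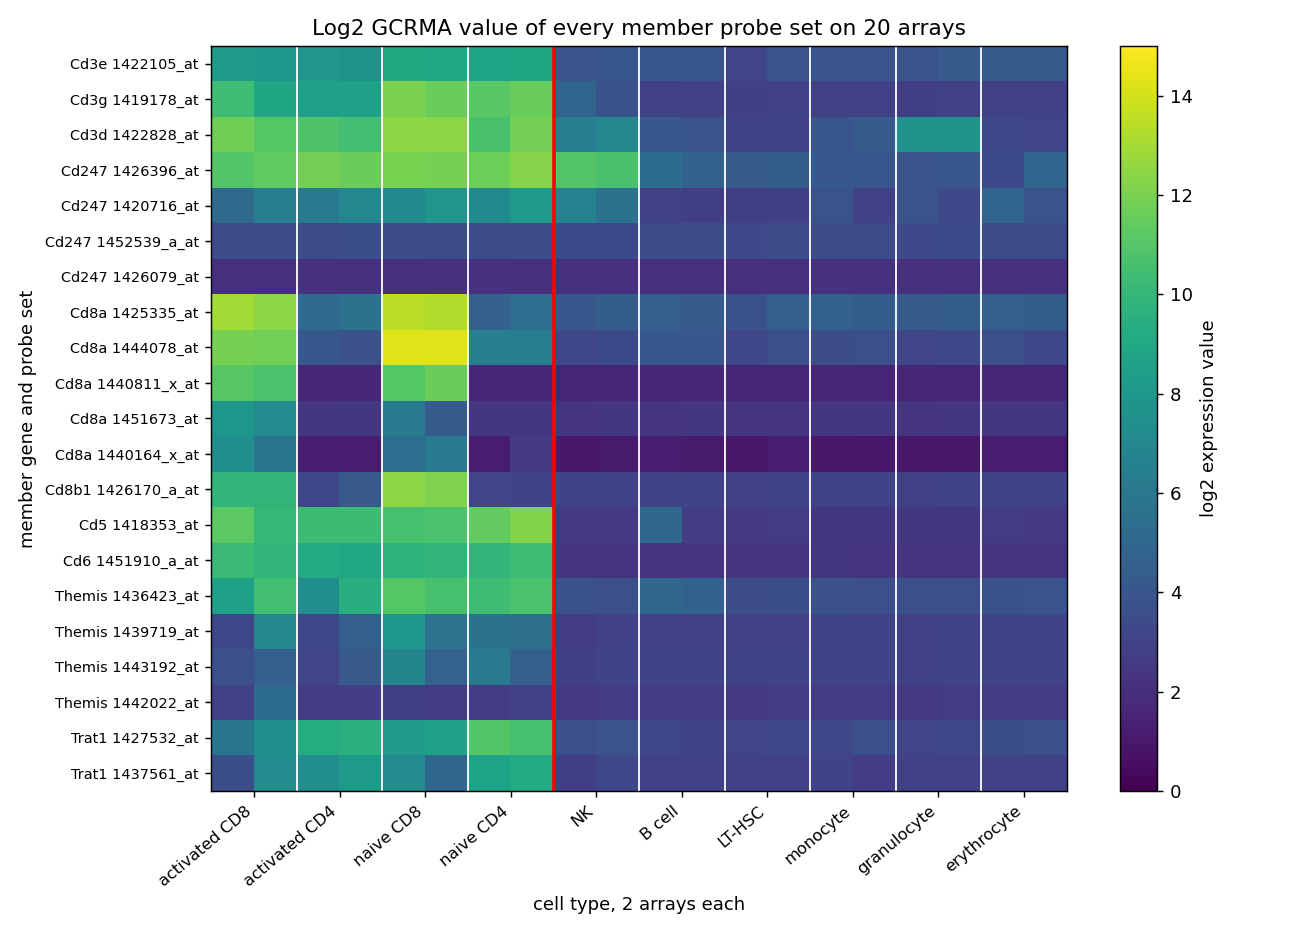
Log2 expression value (colour, from 0 to 15) of all 21 member probe sets (rows) on the 20 arrays (columns, 2 per cell type, white lines between types and a red line between the T cells and the other types). The 8 T cell columns at the left are bright in most rows, the Cd8a and Cd8b1 rows mainly in the CD8 columns, and bright cells right of the red line are found in the rows of Cd247 (NK) and Cd3d (granulocytes and NK).

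Levels below are log2 values of the brightest probe set of each gene unless another is named, and values of different probe sets are not set against each other. A log2 value of 5 is the level that at least 2 arrays had to exceed for a probe set to be tested. Epsilon, the chain shared by both CD3 pairs, was close to background outside T cells. Cd3e (1422105_at) read 8.27 and 8.0 in activated CD8, 7.84 and 7.72 in activated CD4, 9.09 and 8.98 in naive CD8 and 8.71 and 8.82 in naive CD4 T cells, against 3.15 to 4.38 in the 12 arrays of the other types. The 4 T cell groups did not overlap each other in Cd3e, and naive CD8 T cells were highest.

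The gamma chain spread more widely. Cd3g (1419178_at) read 10.32 and 8.90 in activated CD8, 8.49 and 8.59 in activated CD4, 12.03 and 11.64 in naive CD8 and 11.15 and 11.54 in naive CD4 T cells. It read 4.83 and 3.76 in NK cells and 2.81 to 2.96 in the 10 arrays of the remaining types. Naive arrays of both lineages lay above all activated ones, and the 2 activated CD8 arrays lay 1 unit or more apart.

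The delta chain was the CD3 gene with signal outside T cells. Cd3d (1422828_at) read 11.75 and 11.06 in activated CD8, 10.88 and 10.54 in activated CD4, 12.43 and 12.42 in naive CD8 and 10.68 and 11.84 in naive CD4 T cells. In granulocytes it read 7.62 and 7.66 and in NK cells 6.39 and 6.95, against 4.16 and 3.92 in B cells, 4.02 and 4.34 in monocytes, 3.20 and 3.12 in erythrocytes and 3.06 and 3.09 in LT-HSC. The granulocyte and NK values were noticed in the data, and the granulocyte level was not tested. In the same granulocyte arrays Cd3e read 3.9 and 4.3 and Cd3g 2.81 and 2.9.

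Zeta was high in NK cells as well. Cd247 (1426396_at) read 10.99 and 11.32 in activated CD8, 11.87 and 11.61 in activated CD4, 11.96 and 11.94 in naive CD8 and 11.70 and 12.28 in naive CD4 T cells. In NK cells it read 11.01 and 10.69, which overlaps activated CD8 T cells, and in the other 10 arrays 3.39 to 5.28, with B cell array 1 highest. A second probe set, 1420716_at, was dimmer and had the same split, with 5.18 to 8.16 in T cells and 6.67 and 5.64 in NK cells. The 2 other Cd247 probe sets (1452539_a_at and 1426079_at) gave nearly constant values in all 20 arrays and were not tested.

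**Figure D2:**
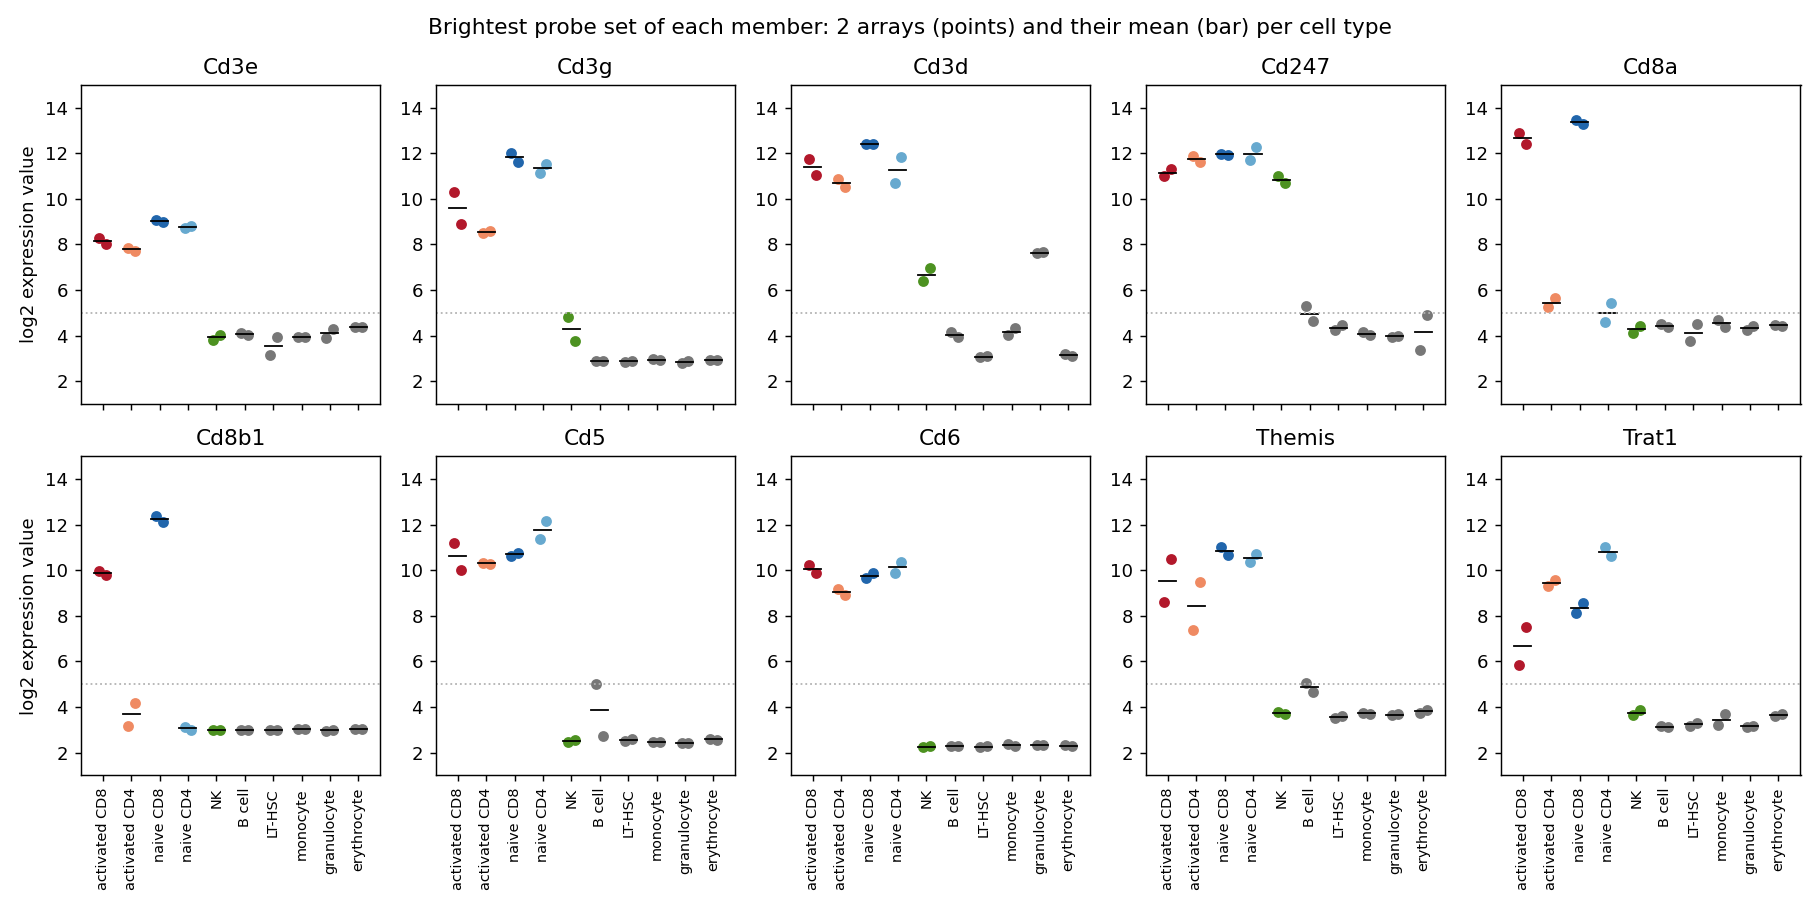
Log2 expression value of the brightest probe set of each member in the 10 cell types (points: 2 arrays, black bar: their mean, dotted line: a log2 value of 5). Cd247 reads 11.01 and 10.69 in NK cells, Cd3d reads 7.62 and 7.66 in granulocytes, and Cd8a and Cd8b1 are high in both CD8 groups alone.

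The CD8 co-receptor genes follow the sort and so check the labels of the CD8 groups rather than test anything. Cd8a (1425335_at) read 12.91 and 12.42 in activated CD8 and 13.44 and 13.29 in naive CD8 T cells, against 5.26 and 5.63 in activated CD4 and 4.58 and 5.43 in naive CD4 T cells and 3.77 to 4.68 elsewhere. Cd8b1 (1426170_a_at) read 9.95 and 9.80 in activated CD8 and 12.40 and 12.10 in naive CD8 T cells, against 3.18 and 4.17 in activated CD4 and 3.14 and 3.01 in naive CD4 T cells and 2.96 to 3.05 elsewhere. Both genes were high in the array titled CD48+, the first of the naive CD8 pair. Cd4 has 1 tested probe set (1419696_at), which read 4.11 and 2.87 in activated CD4 T cells, against 6.34 and 7.13 in naive CD4 T cells, and 1.98 or less in the CD8 groups. Both activated CD4 arrays were thus under the log2 value of 5, and Cd4 is a weak check of that label.

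The tuning receptors were bright in all T cells and nearly absent elsewhere. Cd5 (1418353_at) read 11.21 and 10.01 in activated CD8, 10.30 and 10.29 in activated CD4, 10.64 and 10.74 in naive CD8 and 11.37 and 12.18 in naive CD4 T cells. Outside T cells it read 5.0 and 2.74 in B cells, where a subset is known to carry CD5, and 2.42 to 2.61 in the other types. Cd6 (1451910_a_at) read 10.23 and 9.88 in activated CD8, 9.19 and 8.91 in activated CD4, 9.67 and 9.86 in naive CD8 and 9.87 and 10.37 in naive CD4 T cells, against 2.24 to 2.36 in all 12 other arrays. Activated CD4 T cells were the lowest T cell group for Cd6, naive CD8 T cells came just below the rest, and activated CD8 and naive CD4 T cells overlapped.

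Themis and Trat1 varied more between replicate T cell arrays. Themis (1436423_at) read 8.60 and 10.48 in activated CD8, 7.38 and 9.47 in activated CD4, 11.04 and 10.65 in naive CD8 and 10.35 and 10.73 in naive CD4 T cells, against 5.06 and 4.67 in B cells and 3.53 to 3.87 in the other types. Both activated groups thus held a low and a high array. Trat1 (1427532_at) read 5.85 and 7.49 in activated CD8, 9.30 and 9.55 in activated CD4, 8.12 and 8.58 in naive CD8 and 11.01 and 10.62 in naive CD4 T cells. It read 3.66 and 3.85 in NK cells and 3.10 to 3.68 in the other types. No 2 T cell groups overlapped in Trat1, and within each activation state the CD4 group was the higher one.

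Set against the other types, the members were chosen T cell genes, and this contrast describes them only. For 7 of the 10 genes all 8 T cell arrays lay above all 12 others (the exceptions were Cd247, Cd8a and Cd8b1), as they did for 1.47% of all genes by their brightest tested probe set. The mean of the 4 T cell groups minus that of the 6 other types ranged, over brightest probe sets, from 4.21 for Cd8b1 to 8.11 for Cd5 on the log2 scale. A difference was called when its limma adjusted p was under 0.05 and its size at least 1 (2-fold). By that rule 18 of 18 tested probe sets were higher, but 15 of them had passed the brightness filter only through T cell arrays, so the count supports nothing. Of all 18726 probe sets tested, 21.8% were called higher and 21.2% lower.

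Activation was compared with the naive state in each lineage. In CD4 T cells the receptor members that passed the test were all lower after activation. Cd3g fell by 2.81 ± 0.40 (SE, limma adjusted p = 0.000179), Themis by 2.12 ± 0.59 (adjusted p = 0.0147), Trat1 by 1.39 ± 0.40 (adjusted p = 0.0167) and Cd6 by 1.07 ± 0.22 (adjusted p = 0.00195). With 1 weaker Themis probe set (1443192_at, -1.69 ± 0.60, limma adjusted p = 0.0475) and 1 Cd8a probe set (1444078_at, -2.53 ± 0.23, limma adjusted p = 5.49e-06), 6 of 18 tested probe sets (33.3%) were lower and 0 higher. Themis 1443192_at passed the brightness filter through naive arrays alone, so its lower call was favoured by the filter. With a filter passed on arrays other than the naive T cell ones, an alternative chosen after seeing the data, 5 of 16 member probe sets were lower (31.2%, against 15.7% of all probe sets). Over all probe sets 15.9% were called lower and 14.2% higher. The median difference was -1.07 for the members and 0.03 for all probe sets tested. At an unadjusted limma p under 0.05, 9 of the 18 differed.

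The other CD4 members did not meet both limits. Cd3e, with activated arrays below naive ones, differed by -0.99 ± 0.25 (limma adjusted p = 0.00854), just under the fold limit, and Cd5 by -1.48 ± 0.56 (adjusted p = 0.0574). Cd3d (-0.55, adjusted p = 0.27) and Cd247 (-0.25, adjusted p = 0.742) overlapped between the groups. Cd8b1 read higher by 0.60 (adjusted p = 0.106), near background in both groups.

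Several CD4 calls were lost with few arrays changed. Themis differed by -1.07 (limma adjusted p = 0.207) without activated CD4 array 1 and by -1.93 (adjusted p = 0.0794) without naive CD4 array 2. Its call was also lost with the naive arrays numbered 2 (adjusted p = 0.0972) or 1 (adjusted p = 0.0534) left out in both lineages, and in a fit of the compared groups alone (adjusted p = 0.1). Trat1 missed the threshold without activated CD4 array 1 (adjusted p = 0.103) or naive CD4 array 1 (adjusted p = 0.105), and with the naive arrays numbered 1 left out (adjusted p = 0.118). Cd6, with an adjusted p still under 0.05, stood at -0.82 without naive CD4 array 2, with or without naive CD8 array 2, and at -0.93 without activated CD4 array 2, under the fold limit both times. Naive CD4 array 2 is the one with raised S100a8 and S100a9. The call of Cd3g was kept under every alternative, at -2.61 (adjusted p = 0.00409) when all arrays carried the Y-linked signal and -3.00 (adjusted p = 0.00204) when the naive ones did not.

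In CD8 T cells Cd3g, Cd3d, Trat1 and the co-receptor's beta chain were lower after activation by their brightest probe sets. Cd3g fell by 2.23 ± 0.40 (SE, limma adjusted p = 0.00109), Cd8b1 by 2.38 ± 0.27 (adjusted p = 3.4e-05), Trat1 by 1.68 ± 0.40 (adjusted p = 0.00617) and Cd3d by 1.02 ± 0.35 (adjusted p = 0.0407). The second Cd247 probe set differed by -1.67 ± 0.54 (limma adjusted p = 0.0314), and its brightest one by -0.80 (adjusted p = 0.159). Counting also Themis 1443192_at (-1.75 ± 0.60) and Cd8a 1444078_at (-2.43 ± 0.23), 7 of 18 tested probe sets (38.9%) were lower and 1 (5.6%) higher. With the filter passed outside the naive T cells, which Themis 1443192_at did not pass, 6 of 16 were lower (37.5%, against 14.1% of all probe sets). The shares of all probe sets were 14.3% lower and 14.1% higher, and the medians were -0.96 for members and -0.03 for all. Activated CD8 arrays lay below naive ones for 8 of the 10 genes, above them for Cd6 and on both sides of them for Cd5. Of all genes, 38.4% had both activated arrays below both naive ones and 32.6% above.

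Cd5 (-0.08) and Cd6 (0.29) therefore gave no call in CD8 T cells, nor did Themis (-1.31, limma adjusted p = 0.119), Cd3e (-0.90, adjusted p = 0.0153) or the brightest Cd8a probe set (-0.70, adjusted p = 0.116). The Cd3d call was lost under 16 of 32 alternatives and stood at -0.68 (limma adjusted p = 0.296) without activated CD8 array 2 and at -1.02 (adjusted p = 0.135) without naive CD8 array 1. It was also lost without naive CD8 array 2 or either LT-HSC, B cell or granulocyte array, and with the naive arrays numbered 2 (adjusted p = 0.0585) or 1 (adjusted p = 0.06) left out. Trat1 stood at -0.86 (adjusted p = 0.0589) without activated CD8 array 1 and at -1.45 (adjusted p = 0.0569) without naive CD8 array 2 or, with naive CD4 array 2 left out as well, at the same value (adjusted p = 0.0652). Cd3g and Cd8b1 kept their calls: with naive arrays numbered 2 left out Cd3g stood at -2.42 (adjusted p = 0.00735) and Cd8b1 at -2.53 (adjusted p = 0.000667), and with those numbered 1 left out at -2.03 (adjusted p = 0.0172) and -2.23 (adjusted p = 0.00127). The count of called member probe sets was 5 without either naive CD8 array. With naive arrays numbered 2 left out, so that every T cell array carried the Y-linked signal, 4 member probe sets were lower in activated CD4 T cells, and in activated CD8 T cells 4 were lower and 1 higher.

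**Figure D3:**
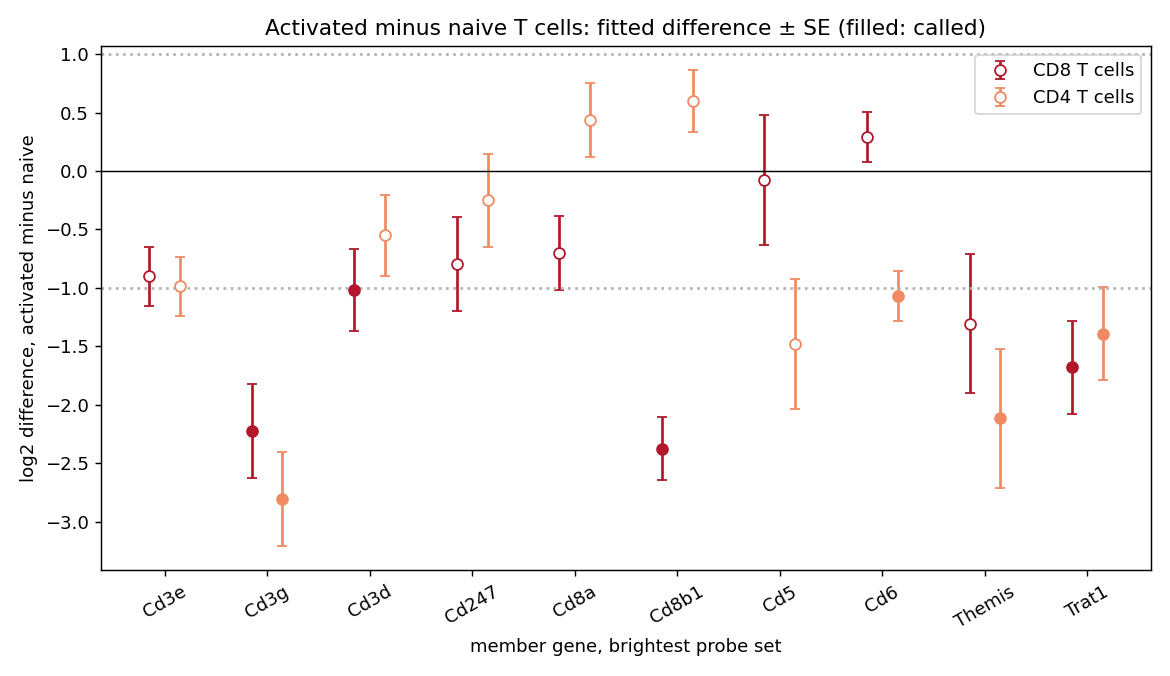
Fitted log2 difference, activated minus naive, of the brightest probe set of each member in CD8 and CD4 T cells (points with bars of 1 SE, filled where called, dotted lines at -1 and 1). Cd3g and Trat1 are called lower in both lineages, Cd8b1 and Cd3d in CD8 T cells, and Themis and Cd6 in CD4 T cells, while Cd247 is called in neither.

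Tyrobp and the summed levels of monocyte, NK and B cell markers were lower in activated than in naive T cells of both lineages. Few of the summed markers were called. The part of any of them in these differences was not tested. Tyrobp, an adaptor of NK and myeloid receptors, read 3.56 and 4.73 in activated CD8 and 3.79 and 5.68 in activated CD4, against 7.07 and 9.70 in naive CD8 and 9.63 and 10.54 in naive CD4 T cells. The 5 tested monocyte markers summed to 15.67 to 17.51 log2 units in activated T cell arrays and 23.58 to 29.31 in naive ones, with 0 or 1 of them above a log2 value of 5 in an activated array and 2 or 3 in a naive one. The 7 NK markers summed to 36.65 and 39.50 in activated CD8 and 49.20 and 46.24 in naive CD8 T cells, and to 27.23 and 30.82 in activated CD4 and 34.65 and 32.74 in naive CD4 T cells. These sums hide unlike genes. Klrd1 was called lower and Eomes higher in activated CD4 T cells, and Klrd1 and Gzma were called lower in activated CD8 T cells. Ncr1, Klre1, Klrk1 and Klrb1a read 3.74 or less in all T cell arrays. The 5 tested B cell markers summed to 22.15 to 28.06 in activated and 28.27 to 32.61 in naive T cell arrays. In each lineage 1 of 5 monocyte markers (Csf1r) and 1 of 5 B cell markers (Cd79b) were called lower and 0 higher. Of all genes, 17.7% were called lower in activated CD4 and 15.2% in activated CD8 T cells. The monocyte markers Cd14 and Itgam read 1.68 or less and 2.62 or less in all T cell arrays. The 2 tested dendritic cell markers, Flt3 and Itgax, were called lower in both lineages. Flt3 read 3.72 to 4.62 in activated and 5.22 to 6.37 in naive T cell arrays, and Itgax 3.28 to 3.35 and 4.78 to 5.63. Zbtb16, a marker of innate-like T cells, was called lower in CD4 T cells alone (2.69 and 4.45 when activated, 6.62 and 7.32 when naive). The part of these genes was not tested.

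Cd8a alone had probe sets that disagreed about activation. On 1444078_at activated CD8 T cells read 11.95 and 11.80, against 14.27 and 14.34 in naive CD8 T cells. On 1451673_at they read 7.86 and 7.23, against 6.18 and 4.37 in naive CD8 T cells, which was called higher at 2.27 ± 0.41 (limma adjusted p = 0.00111). Of the 3 arrays above the filter level on this probe set 2 were the activated CD8 ones, so that call was favoured by the filter. On 1440811_x_at activated CD8 T cells read 11.12 and 10.77, against 11.07 and 11.65 in naive ones, and on 1440164_x_at 7.34 and 5.77, against 5.40 and 6.19 in naive CD8 T cells. Of the 5 probe sets, 1 was called lower, 1 higher and 3 in neither direction. In CD4 T cells 1444078_at read 4.14 and 3.72 when activated, against 6.48 and 6.44 when naive, while the brightest probe set read 5.26 and 5.63 when activated, against 4.58 and 5.43 when naive (0.44, limma adjusted p = 0.34). No direction is therefore given for Cd8a as a gene.

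**Figure D4:**
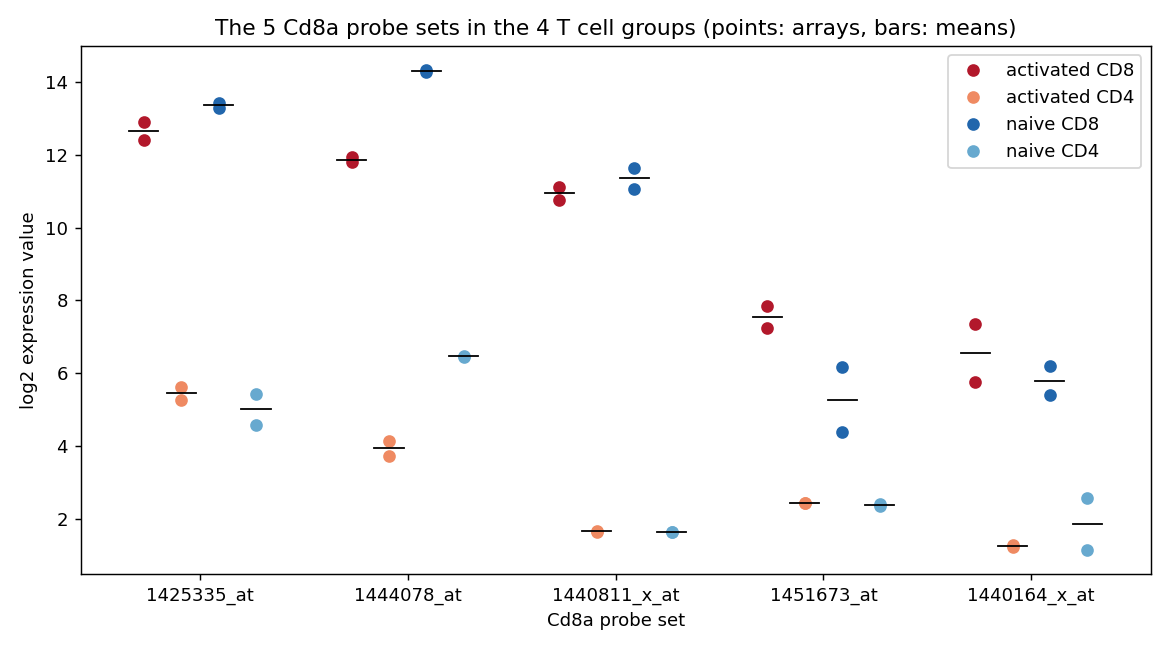
Log2 expression value of the 5 Cd8a probe sets in the 4 T cell groups (points: arrays, bars: means of 2). Activated CD8 arrays lie below naive ones on 1444078_at (11.95 and 11.80 against 14.27 and 14.34), above them on 1451673_at, and overlap them on both x_at sets.

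Whether activation acted differently in the lineages was tested as the difference between the CD8 and the CD4 activation differences. Cd8b1 was the single member called, at -2.98 ± 0.38 (limma adjusted p = 0.00163), and of all probe sets 0.23% were called lower in this contrast and 0.283% higher (0.513% together). Cd8b1 lay near background in both CD4 groups, so the contrast contains a gene that had little room to fall in CD4 T cells. It missed the threshold in a fit of these 4 groups alone (adjusted p = 0.145). Cd6, called in CD4 T cells and not in CD8 T cells, differed by 1.36 ± 0.31 (limma adjusted p = 0.0982), and Trat1, Cd3g, Cd3d, Cd247, Cd5 and Themis were not called.

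Between the lineages, Trat1 was the member outside the sort gate that differed in both states. It was lower in naive CD8 than in naive CD4 T cells by -2.47 ± 0.40 (limma adjusted p = 0.00535) and lower in activated CD8 than in activated CD4 T cells by -2.76 ± 0.40 (adjusted p = 0.00329). Over all probe sets 0.587% and 0.182% were called lower in these contrasts and 1.09% and 0.945% higher. The second Trat1 probe set (1437561_at) had the same sign, with 3.59 and 7.22 in activated CD8, 7.38 and 8.19 in activated CD4, 7.21 and 5.01 in naive CD8 and 8.71 and 9.15 in naive CD4 T cells, and was not called. In naive cells the Trat1 call was lost without naive CD4 array 1 (-2.27, limma adjusted p = 0.0606), without naive CD8 array 1 (-2.24, adjusted p = 0.0708) and without both (-2.04, adjusted p = 0.281). In fits of the compared groups alone it was lost in both states (adjusted p = 0.127 in naive and 0.272 in activated T cells).

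Cd6 was higher in activated CD8 than in activated CD4 T cells by 1.01 ± 0.22 (limma adjusted p = 0.0444), a call lost under 21 of 31 alternatives, among them leaving out either array of LT-HSC, NK, naive CD8, activated CD4, activated CD8, B cells, granulocytes or erythrocytes. Without activated CD4 array 2 it stood at 0.87 (adjusted p = 0.279) and without activated CD8 array 1 at 0.83 (adjusted p = 0.322). Naive CD8 and naive CD4 T cells gave no call for Cd3d (1.17, limma adjusted p = 0.158) or Cd5 (-1.09, adjusted p = 0.555). All 5 Cd8a probe sets and Cd8b1 were higher in the CD8 groups in both states, which the sort itself selects, by 2.90 to 9.74 for Cd8a and 9.18 for Cd8b1 in naive cells.

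NK cells were then set against the mean of the other 5 types outside the T cells. NK receptors are known to signal through zeta, Fcer1g and Tyrobp in place of CD3. Cd247 was higher in NK cells by 6.55 ± 0.31 (limma adjusted p = 3.31e-09), and its second probe set by 2.75 ± 0.42 (adjusted p = 0.000159). Cd3d was higher by 2.25 ± 0.27 (adjusted p = 2.19e-05) and Cd3g by 1.40 ± 0.31 (adjusted p = 0.00283). Cd3e differed by -0.08 ± 0.19 (adjusted p = 0.776). In Cd3g both NK arrays read under the filter level of 5, which this probe set passed only through T cell arrays. The Cd3g call was lost without NK array 1 (0.86, limma adjusted p = 0.115), the array at 4.83.

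In all, 4 of 18 probe sets (22.2%) were higher in NK cells, close to the 19.7% of all probe sets tested, and 0 were lower (13.9% of all). At an unadjusted limma p under 0.05 the count was also 4. Cd5, Cd6, Themis and Trat1 read 3.85 or less in both NK arrays. Granulocytes, which are in the comparison group, held more Cd3d than NK cells did, so the Cd3d difference stands against a mean that includes a high type. The 3 adaptor chains of NK and myeloid receptors in the companion list, Fcer1g, Tyrobp and Hcst, each exceeded the mean of those types, by 2.69 ± 0.54, 3.34 ± 0.61 and 2.52 ± 0.51 (limma adjusted p = 0.00125, 0.000692 and 0.0014). That mean too includes high types. Tyrobp read 14.01 and 13.71 in NK cells, against 14.23 to 15.18 in monocytes and granulocytes. Fcer1g read 12.26 and 11.71 in NK cells, against 12.69 to 13.19 in monocytes and granulocytes, and Hcst 8.34 and 7.68, against 8.15 to 9.81.

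Downstream signalling genes gave a setting for these values. Of 28 listed kinases, adaptors, phosphatases and co-receptors of T-cell receptor signalling, 24 were tested, each by its brightest tested probe set. In activated CD4 T cells 12 were lower and 0 higher (of all genes 17.7% were called lower and 14.5% higher), and in activated CD8 T cells also 12 and 0 (15.2% and 14.1%). Cd4 and the adaptor Sit1 passed the brightness filter through naive arrays alone, so their lower calls were favoured by it. With the filter passed outside the naive T cells 22 genes were tested, with 10 lower in activated CD4 (17.4% of all genes) and 11 lower in activated CD8 T cells (15%). Over the 24 genes of the main filter the median differences were -1.53 in CD4 and -1.07 in CD8 T cells. Skap1, an adaptor that links the receptor to integrins, was lower by -5.66 ± 0.38 in CD4 and -2.55 ± 0.38 in CD8 T cells (limma adjusted p = 5.98e-07 and 0.000282), and the difference between them was itself called (3.11 ± 0.54, adjusted p = 0.0206, where 0.616% of genes were called).

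Other genes of the list were called lower in both lineages. Pag1, which recruits the inhibitory kinase Csk, was lower by -2.91 in CD4 and -2.37 in CD8 T cells, and Ubash3a, a suppressor of receptor signalling, by -2.43 and -3.23. Plcg1, the phospholipase that produces the calcium signal, was lower by -2.16 and -2.08. The phosphatase Ptpn22 was also called lower in both. It read 9.44 and 9.38 in activated CD4, against 11.33 and 11.49 in naive CD4 T cells. In CD8 T cells it read 11.15 and 10.33 when activated, against 12.19 and 11.76 when naive. The inhibitory phosphatase Ptpn6 (-0.14 and 0.17, limma adjusted p = 0.927 and 0.905) and Csk (-1.30 and -1.31, adjusted p = 0.0618 and 0.0638) were not called in CD4 or CD8 T cells. Cd4 itself differed by -3.25 ± 0.34 in activated CD4 T cells (limma adjusted p = 1.54e-05), and the difference of its activation differences was 3.23 ± 0.47 (adjusted p = 0.0059). Cd4 was above the filter level in the 2 naive CD4 arrays alone, so both calls rest on a gene tested because it was high there.

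The proximal kinase and scaffold were not called. Zap70 read 9.58 and 10.04 in activated CD8 and 9.99 and 10.31 in activated CD4, against 9.42 and 9.88 in naive CD8 and 9.76 and 9.14 in naive CD4 T cells, with differences of 0.16 and 0.70 (limma adjusted p = 0.945 and 0.389). Lat differed by -0.88 and -0.68 (adjusted p = 0.106 and 0.214) in CD8 and CD4 T cells. Cd28, the co-stimulatory receptor, differed by 1.36 and 0.56 (adjusted p = 0.145 and 0.612). In NK cells 17 of the 24 genes were called higher and 3 lower, beside 22.4% and 15.1% of all genes, and Zap70 was among the higher ones (5.71 ± 0.43, limma adjusted p = 2.54e-07).

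**Figure D5:**
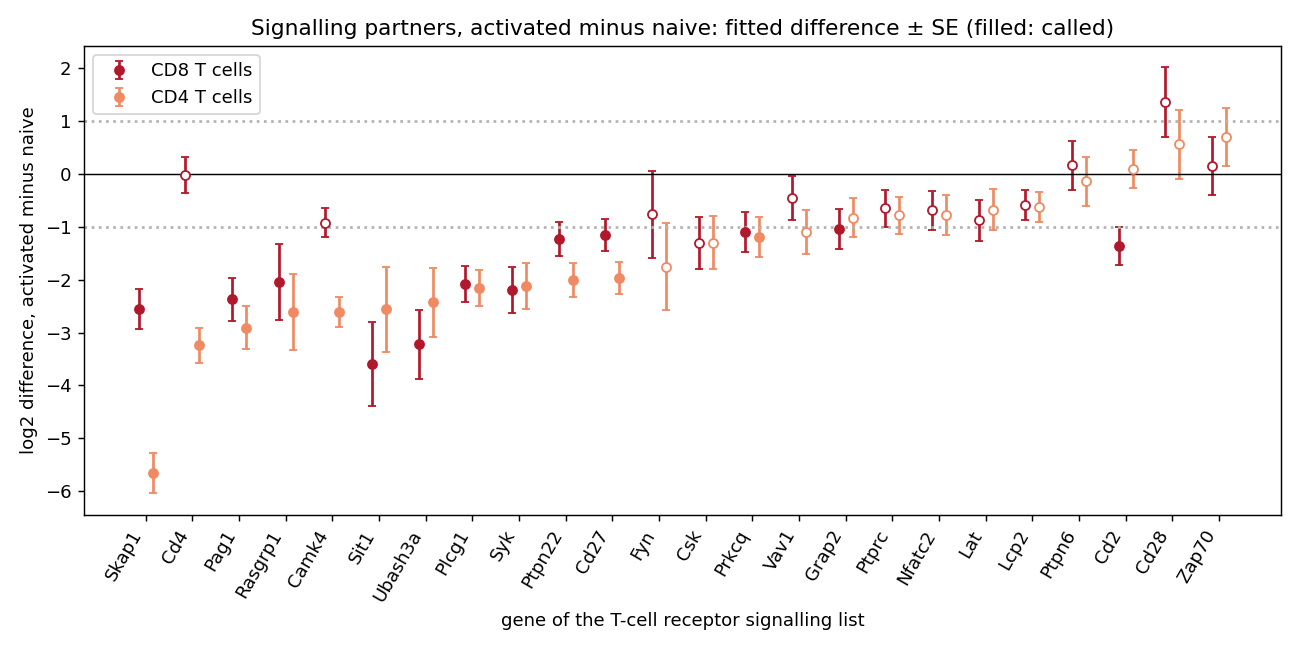
Fitted log2 difference, activated minus naive, of the 24 tested genes of the T-cell receptor signalling list in CD8 and CD4 T cells (points with bars of 1 SE, filled where called, dotted lines at -1 and 1). Called genes, 12 in each lineage, all lie below -1, with Skap1 lowest in CD4 T cells at -5.66.

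Among the T lineage transcription factors, 7 of 8 were tested. Lef1, a member of the TCF/LEF family, was lower after activation in CD4 (-2.08 ± 0.25) and CD8 T cells (-2.74 ± 0.25). Gata3, a factor of CD4 lineage choice, was lower in activated CD4 T cells alone among the calls (-1.47 ± 0.49, limma adjusted p = 0.0327), and the lineage difference of this change was not called (1.12, adjusted p = 1). It read 2.61 and 2.62 in activated CD4, against 3.29 and 4.88 in naive CD4 T cells, all under the filter level. The high value is that of naive CD4 array 2, the array with raised S100a8 and S100a9. Zbtb7b, the factor that commits thymocytes to the CD4 lineage, was lower in CD8 than in CD4 T cells in the naive (-1.90 ± 0.29, limma adjusted p = 0.00295) and the activated state (-1.93 ± 0.29, adjusted p = 0.0036). In these contrasts 0.687% and 0.242% of all genes were called lower and 1.34% and 1.09% higher. The remaining 4 tested factors gave no call in either activation contrast.

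Across the 20 arrays the genes outside the member list that were most like 5 of the members were found by Pearson correlation, a description in which the split between T cells and other types dominates. Outside the list Cd3e was nearest to Trav9d-3 (0.991), Camk4 (0.979) and Trav6-3 (0.966), which are receptor variable segments and a calcium-dependent kinase. Cd5 and Themis had the same 3 non-member genes nearest, with 0.988 for Trav9d-3 and Cd5 and 0.972 for Trav6-3 and Themis. Of non-members Cd247 was nearest to Thy1 (0.990), Zap70 (0.981) and Trbv1 (0.976). Of non-members Cd8a was nearest to Trpm1 (0.952), Kcna2 (0.948) and Slc26a6 (0.907). Among the members, Cd8a correlated at 0.989 with Cd8b1, above its nearest non-member. Cd6 correlated at 0.988 with Cd5 and 0.987 with Cd3e, not above the nearest non-members of Cd5 (0.988) and Cd3e (0.991). Themis correlated at 0.974 with Cd3e. Cd3e correlated at 0.98 with Cd3g, 0.92 with Cd3d and 0.833 with Cd247.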

How the data were processed

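Deposited values were log2 expression values of 20 Mouse430_2 arrays, made by the authors with GCRMA (background correction from probe sequence, normalization between arrays, summary per probe set) per the submitters' processing notes. Its version was not given in the sources used here. The values ran from 0.37 to 16.85 and array medians from 3.08 to 3.27, and nothing was normalized further. The number of arrays limits the precision.

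Symbols came from the platform annotation, 34741 of the 34945 probe sets with 1 symbol being named through the Entrez identifier in RefSeq. Probe sets with several symbols were tested unnamed. Groups came from the titles, for 1 array from its source name. The linear model, with a mean for each cell type over the 20 arrays, was fitted with limma 3.58.1 in R 4.3.3 (lmFit, eBayes, 10 residual degrees of freedom), on 18726 probe sets with at least 2 arrays above 5, controls left out. P-values are 2-sided, with Benjamini-Hochberg adjustment over all probe sets in each of 7 comparisons. The fit was tested on simulated data.

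The named genes are all members, with companion-list genes where called or where a result turns on them. For likeness, the 3 most correlated genes outside the member list are named for Cd3e, Cd247, Cd8a, Cd5 and Themis. The members, lists and tests were chosen with earlier results of these data known. Of the signalling list 24 genes were tested, and of the factor list 7. The remaining genes of these lists are not analysed here. There were 32 alternatives, 1 of them, a filter passed outside the naive T cells, chosen after seeing the data.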

Additional observations from a re-analysis of the deposited data

Results flagged for a closer look

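The activation difference of Cd8b1, the beta chain of the CD8 co-receptor, was unlike in the 2 lineages. Activated minus naive it was -2.38 ± 0.27 in CD8 T cells and 0.60 ± 0.27 in CD4 T cells, and the CD8 difference less the CD4 difference was -2.98 ± 0.38 by the limma interaction contrast (adjusted p = 0.00163), with both CD8 arrays of the activated group below both of the naive group. The CD4 groups read 3.18 and 4.17 when activated and 3.14 and 3.01 when naive, which is near background. Without the naive arrays numbered 1 the value was -2.89 (limma adjusted p = 0.0363), without those numbered 2 it was -3.06 (adjusted p = 0.0191). It missed the threshold in a fit of these 4 groups alone (-2.98, adjusted p = 0.145).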

How the results depend on the processing

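Of 70 member differences (10 genes in 7 comparisons, brightest probe set), 29 were called, and 18 of these kept their call under all 32 alternatives that applied to them. The other 11 lost it at least once, 9 differences gained a call at least once, and 0 called differences changed sign. The count of called member probe sets in T cells against the other types was 18, and 10 with 1 probe set per gene, since only 10 were then tested. In activated against naive CD8 T cells it was 8, and 5 with no filter on dim probe sets, 4 with 1 probe set per gene, 3 in a fit of only the groups compared and 5 with the naive arrays numbered 2 left out. For the difference of the activation differences it was 1, and 2 with no filter, 2 with array weights, 2 with the naive arrays numbered 1 left out and 0 in a fit of only the groups compared, where 3 differed at an unadjusted limma p under 0.05. In naive CD8 against naive CD4 T cells it was 7, and 3 with 1 probe set per gene and 4 in a fit of only the groups compared. In activated CD8 against activated CD4 T cells it was 8, and 4 and 3 under the same settings. Fits of only the groups compared take the spread from fewer arrays. Leaving out each array in turn gave counts of 17 to 18 in T cells against the other types, 4 to 7 in activated CD4, 5 to 10 in activated CD8, 1 to 2 for the difference of the activation differences, 6 to 8 between naive lineages, 7 to 9 between activated lineages and 3 to 4 in NK cells. Where this leaves 1 array in a group, that array is assumed to vary like the other groups. Cd5 in activated CD4 T cells gained a call under 8 alternatives, among them either B cell array left out (limma adjusted p = 0.00643). Themis in activated CD8 T cells gained one without activated CD8 array 2 (-2.25, adjusted p = 0.0192), and Cd3d between naive lineages without naive CD4 array 2 (1.75, adjusted p = 0.0142).

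Replicate numbers are shared by the groups, and the labels do not say that a number marks shared material. The arrays were not taken as paired, since over 45 pairs of groups the correlation of replicate deviations ran from -0.239 to 0.174, and 10 pairs exceeded 0.1, among them naive CD4 with naive CD8 (0.128) and activated CD4 with activated CD8 T cells (0.174). The Y-linked signal also followed the number in the naive groups. With a replicate block the counts were 18 in T cells, 5 in activated CD4, 6 in activated CD8, 1 for the difference of the activation differences, 7 between naive lineages, 7 between activated lineages and 4 in NK cells, and the calls of Cd3d in activated CD8 T cells (adjusted p = 0.0506) and of Cd6 between activated lineages (adjusted p = 0.0653) were lost. For all other causes of a changed call, the cause was not tested.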
